A study of Mus musculus with 10 samples.

Results

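Npy, Pmch and Hcrt encode the precursors of 3 hypothalamic peptides that act on feeding and arousal: neuropeptide Y, melanin-concentrating hormone and the orexins (hypocretins). They were taken by symbol from the array annotation, with the probe set of highest mean signal kept for a gene. Each gene had 1 probe set, so the 3 genes, of 19505 named genes in all, were described whole. The study set male mice of the inbred strain C57BL/6J aged 24 weeks (Young, 5 arrays) beside others aged 138 weeks (Old, 5 arrays), with RNA from the hypothalamus. No treatment, transgene or deletion is labelled in either group; all mice had free access to feed and water. The labels do not say that each array is a separate mouse, so p-values rest on the spread between these arrays, which may be technical. In whole tissue, fewer cells of a type and less RNA per cell cannot be told apart.

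Neuropeptide Y is made by neurons of the arcuate nucleus that also make agouti-related peptide; it drives feeding and is raised by fasting. Melanin-concentrating hormone and the orexins are made by separate, intermingled neuron populations of the lateral hypothalamus. Melanin-concentrating hormone promotes feeding and sleep, and the orexins sustain wakefulness; loss of orexin neurons causes narcolepsy. The peptides are cut from their precursors in secretory granules, and neuropeptide Y and the orexins are then amidated at their carboxyl end by the enzyme encoded by Pam.

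The 3 genes lie on different chromosomes. Their promoters are shown because the transcripts of the lateral pair, Pmch and Hcrt, are compared array by array below. The sequences are the 250 bases before the RefSeq start of transcription in build GRCm38.p6, written 5′ to 3′ on the strand of the gene. Which build the array was designed on is not known from the labels. Capitals mark matches, on either strand, to any of 7 motifs: TATAAA (core of the TATA box), CCAAT (the box of that name), GGGCGG (known as the GC box), TGACG (from the cAMP response element), TGANTCA (for AP-1), CANNTG (the E-box) and TAATTA (the homeodomain core). Npy is at chr6:49822460-49822709 on the + strand, Pmch at chr10:88090822-88091071 on the + strand and Hcrt at chr11:100762932-100763181 on the - strand.
Npy: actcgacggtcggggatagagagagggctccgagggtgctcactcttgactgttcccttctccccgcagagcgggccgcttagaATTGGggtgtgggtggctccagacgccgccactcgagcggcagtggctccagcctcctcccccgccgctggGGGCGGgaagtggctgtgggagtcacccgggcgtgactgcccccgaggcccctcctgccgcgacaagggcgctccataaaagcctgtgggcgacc
Pmch: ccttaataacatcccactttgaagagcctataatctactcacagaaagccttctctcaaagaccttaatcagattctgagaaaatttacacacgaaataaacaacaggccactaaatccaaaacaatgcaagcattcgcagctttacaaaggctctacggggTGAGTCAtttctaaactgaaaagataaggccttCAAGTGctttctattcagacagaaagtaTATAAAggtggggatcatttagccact
Hcrt: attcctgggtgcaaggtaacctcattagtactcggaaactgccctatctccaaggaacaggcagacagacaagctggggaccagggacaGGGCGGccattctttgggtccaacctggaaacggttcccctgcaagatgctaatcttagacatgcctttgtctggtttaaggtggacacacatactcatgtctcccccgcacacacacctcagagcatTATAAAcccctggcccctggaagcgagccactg
The lateral pair each held a TATAAA, 27 bases before the start in Pmch and 33 in Hcrt, and Npy held no exact match. Npy does hold a near match, CATAAAA, close to its start, which is not among the 7 motifs, so this contrast depends on the letters searched. TATAAA was held by 13.0% of 27025 promoters of this length. Npy and Hcrt each held a GC box (in 32.9% of promoters), Npy a CCAAT box (34.5%), and Pmch an AP-1 site (6.9%) and an E-box (66.0%). TGACG (17.9% of promoters) and TAATTA (4.9%) were in none of these 3 windows, and no marked matches overlapped. The share of G and C was 69.2% for Npy, 38.4% for Pmch and 53.6% for Hcrt, against a median of 52.0% over all promoters. A match is a run of letters and does not show that a factor binds there.

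Signal was read as log2, since the deposited values ran from 5.00 to 12.97; the base is not named in the table, and each fold rests on that reading. In 97.9% of the 22206 probe sets the values of the 10 arrays had collapsed to a common population SD of 1e-05 log2, so those genes have a level but their values cannot show a difference. Npy, Pmch and Hcrt were among 276 named genes that varied, here meaning a population SD over the 10 arrays of at least 0.01 log2. Their own SDs were 0.15, 0.085 and 0.090 log2. How far differences of varying genes were also shrunk is unknown. Array medians ran from 6.778 to 6.783 log2. Young 5 stood apart in Ttr (12.44 log2, and at most 7.97 elsewhere), which encodes the transthyretin of choroid plexus, and Young 3 in the liver transcript Alb (6.87, and at most 6.34 elsewhere). The dopamine transporter gene Slc6a3 split the arrays into 6 between 8.26 and 8.90 log2 (Young 1 to 3 and Old 1 to 3) and 4 between 6.65 and 7.22 (Young 4, Young 5, Old 4 and Old 5), and the members' age differences were also computed within these sets. The split was made after seeing the data. The 4 arrays carry the replicate numbers 4 and 5 in both ages; the sources used here do not say what the numbers stand for.

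No member passed the test between the ages taken alone. Npy was 1.15-fold higher in Old, Pmch 1.05-fold higher, and Hcrt 1.07-fold lower. The difference between Pmch and Hcrt within an array did separate the ages: it was larger in all 5 Old arrays than in any Young array. Such a separation was also found in 6.99% of the 19701 pairs of varying genes whose members each overlapped between the ages. With age removed, Pmch and Hcrt correlated over the arrays at r = 0.76, which missed the threshold after adjustment (p = 0.0612, exact permutation), and Npy was at -0.09 and -0.24 with them.

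**Figure D1:**
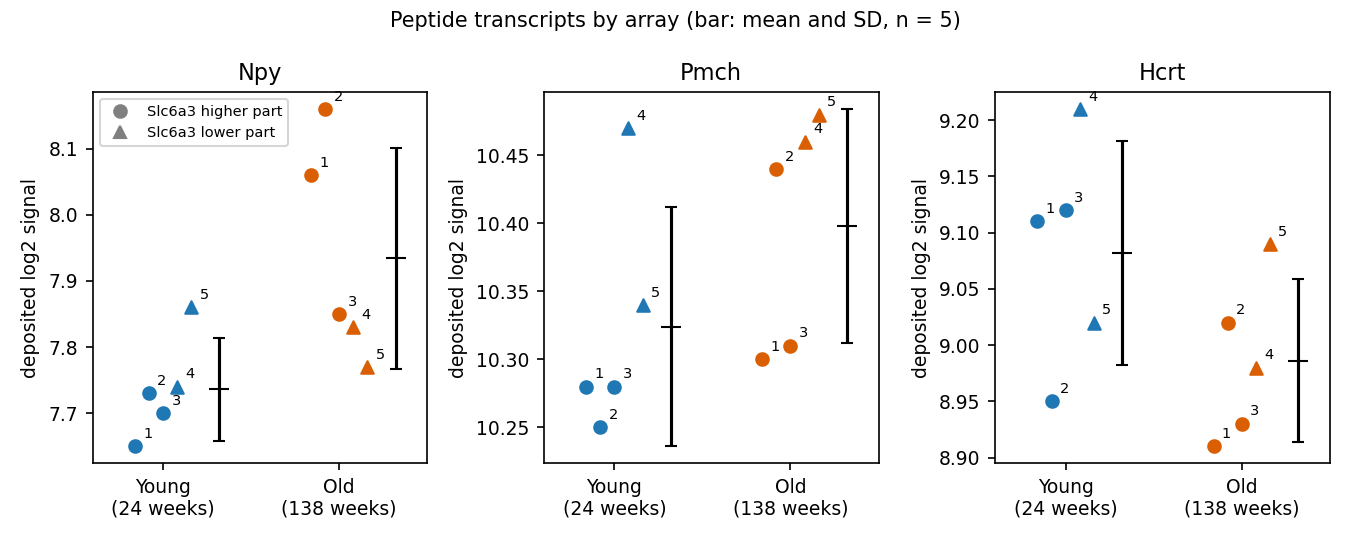
Deposited log2 signal of Npy, Pmch and Hcrt in each of the 10 arrays, numbered by replicate, with the mean and SD of each age beside the points (n = 5); the axes differ between panels and do not start at 0. Circles are the 6 arrays with higher Slc6a3 and triangles the 4 with lower. The 2 highest Npy values, 8.06 and 8.16, are Old 1 and Old 2.

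Npy in the Young arrays 1 to 5 was 7.65, 7.73, 7.70, 7.74 and 7.86 log2. In the Old arrays 1 to 5 it was 8.06, 8.16, 7.85, 7.83 and 7.77 log2. All 5 Old values lay above the Young mean, but only Old 1 and Old 2 lay above the highest Young array, so the groups overlapped. The Young mean was 7.74 ± 0.076 and the Old mean 7.93 ± 0.17 log2 (SD, n = 5). The difference was 0.20 log2 (limma SE 0.078, 95% interval 0.02 to 0.38, or 1.02-fold to 1.30-fold). It did not pass limma with Benjamini-Hochberg adjustment over all genes (adjusted p = 0.688, unadjusted p = 0.0317), nor limma over the 276 varying genes (adjusted p = 0.0707). The 2-sided exact permutation test over all labellings of the arrays gave p = 0.0397, unadjusted.

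The Npy difference lay in the arrays with higher Slc6a3, though the contrast between the sets did not pass a test. Among the 3 Old and 3 Young arrays with higher Slc6a3 it was 0.33 log2, with means of 8.03 and 7.69. Among the 2 Old and 2 Young arrays with lower Slc6a3 it was -0.0024, with both means at 7.80. The difference between these values, 0.335 log2, did not pass as an interaction in limma (SE 0.121, adjusted p = 0.909 over all genes and 0.775 over varying genes). Removing Old 2 took the age difference to 0.14 and removing Old 5 took it to 0.24. Centring each array on its median gave nearly the same difference, 0.20, with an adjusted p of 0.0195. In that fit 99.3% of all genes were called, because medians that differ by 0.0025 log2 between the ages exceed the spread of the collapsed genes.

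Pmch in the Young arrays 1 to 5 was 10.28, 10.25, 10.28, 10.47 and 10.34 log2. In the Old arrays 1 to 5 it was 10.30, 10.44, 10.31, 10.46 and 10.48 log2. Young 4 and Old 2, 4 and 5 formed an upper set in which both ages were present, and Old 5 alone lay above the highest Young array. The means were 10.32 ± 0.087 and 10.39 ± 0.086 log2 (SD, n = 5), a difference of 0.07 (limma SE 0.051, 95% interval -0.05 to 0.19, or 0.969-fold to 1.14-fold). It passed neither limma fit (adjusted p = 0.873 over all genes and 0.325 over varying genes), and the exact permutation p was 0.238. Without Young 4, the highest Young array, the difference was 0.11 (adjusted p = 0.686).

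Pmch was mostly higher in the arrays with lower Slc6a3, a comparison that was not tested. It ran from 10.34 to 10.48 log2 in the 4 arrays with lower Slc6a3 and from 10.25 to 10.44 in the 6 with higher Slc6a3, of which 5 were at most 10.31. The age difference was similar in both sets, 0.08 among the 6 arrays and 0.06 among the 4. Fitted with the set as a block it was 0.07 with a smaller SE of 0.0324, and did not pass (adjusted p = 0.756). Hdc, which encodes the histamine-making enzyme of tuberomammillary neurons, followed the same split: 8.30 to 8.40 log2 in the 4 arrays and 8.13 to 8.26 in the 6. The part of the dissected tissue in these levels was not tested.

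**Figure D2:**
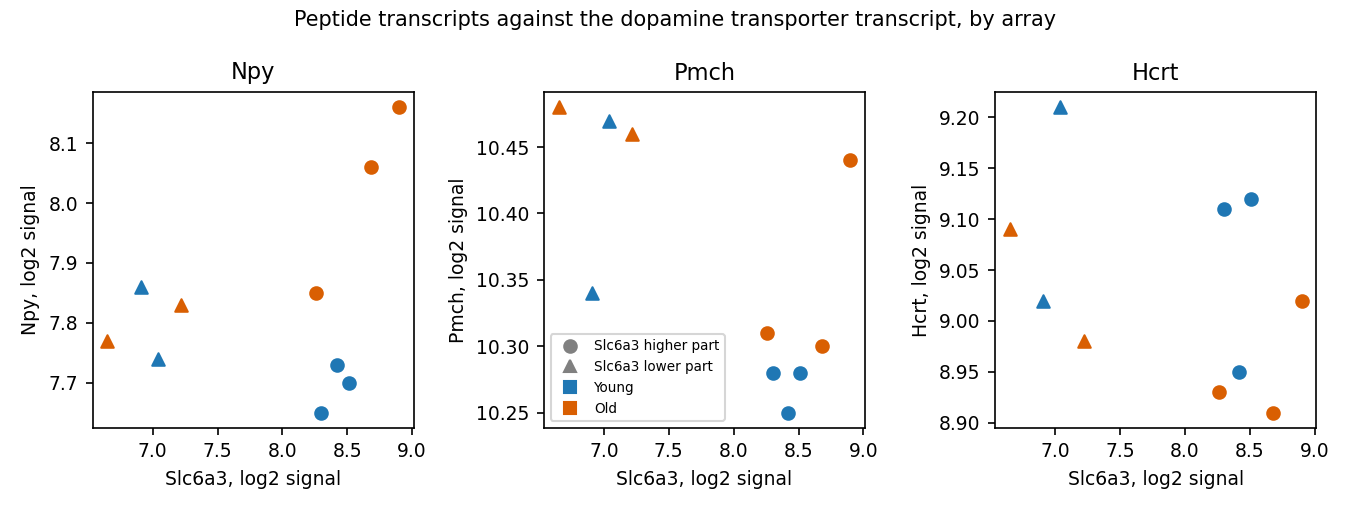
Log2 signal of Npy, Pmch and Hcrt (vertical) against that of Slc6a3 (horizontal) in each of the 10 arrays; blue is Young, orange is Old, and the axes do not start at 0. Slc6a3 leaves a gap between 7.22 and 8.26, and 5 of the 6 arrays to its right have Pmch at 10.31 or below.

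Hcrt in the Young arrays 1 to 5 was 9.11, 8.95, 9.12, 9.21 and 9.02 log2. In the Old arrays 1 to 5 it was 8.91, 9.02, 8.93, 8.98 and 9.09 log2. Young 1, Young 3 and Young 4 lay above every Old array, and Old 1 and Old 3 below every Young one; the others overlapped. The means were 9.08 ± 0.099 and 8.99 ± 0.070 log2 (SD, n = 5), a difference of -0.09 (limma SE 0.051, 95% interval -0.21 to 0.02, or 0.865-fold to 1.02-fold). It passed neither limma fit (adjusted p = 0.806 over all genes and 0.187 over varying genes), and the exact permutation p was 0.119. The difference was -0.10 in the arrays with higher Slc6a3 and -0.08 in those with lower. Without Young 2 it was -0.13 and without Young 4 it was -0.06 (adjusted p = 0.675 and 0.865).

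Read against the background, 0 of the 3 members passed, 1 (Npy) at an unadjusted p under 0.05 and 0 over the varying genes. Over all genes limma called 0.22% (37 rose, 0.19%, and 6 fell, 0.0308%), and over the varying genes 35.9% (68 rose, 24.6%, and 31 fell, 11.2%). Rises were 86.0% of the calls over all genes; with quantile normalization they were 6.68% of 8179 calls, and with median centring 0.475% of 19365, the collapsed genes being moved by these scalings. Of the varying genes 27.9% had no overlap between the ages, and no member was among them.

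The lateral pair was then compared within arrays, as the log2 value of Pmch minus that of Hcrt. The offset between probe sets of different genes has no meaning, and only its change with age was read. It was 1.18, 1.30, 1.16, 1.26 and 1.32 in Young 1 to 5 and 1.38, 1.41, 1.38, 1.48 and 1.39 in Old 1 to 5. The lowest Old arrays lay above the highest Young array, Young 5, by less than the spread among the Young. Pmch relative to Hcrt was thus higher in Old by 0.16 log2 (SE 0.038), or 1.12-fold, in 5 of 5 arrays. The 2-sided exact permutation p was 0.00794, the smallest that 5 against 5 can give, and 0.0238 after Benjamini-Hochberg adjustment over the 3 pairs of members. This pair is one of many: 6.99% of the 19701 pairs of varying genes whose members each overlapped between the ages had no overlap in such a difference.

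The difference between Pmch and Hcrt kept its sign and size in both Slc6a3 sets, 0.18 log2 among the 3 Old and 3 Young arrays and 0.14 among the 2 and 2. Those sets are too small to pass, with a smallest exact permutation p of 0.1 and 0.333. Leaving out any single array gave 0.14 to 0.18 with adjusted p of 0.0238 to 0.0476. Without Young 3 and Young 5, the arrays with liver and choroid plexus signal, it was 0.16 with adjusted p = 0.0536, where 3 against 5 arrays allow an exact permutation p of no less than 0.0179 before adjustment over 3 pairs.

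**Figure D3:**
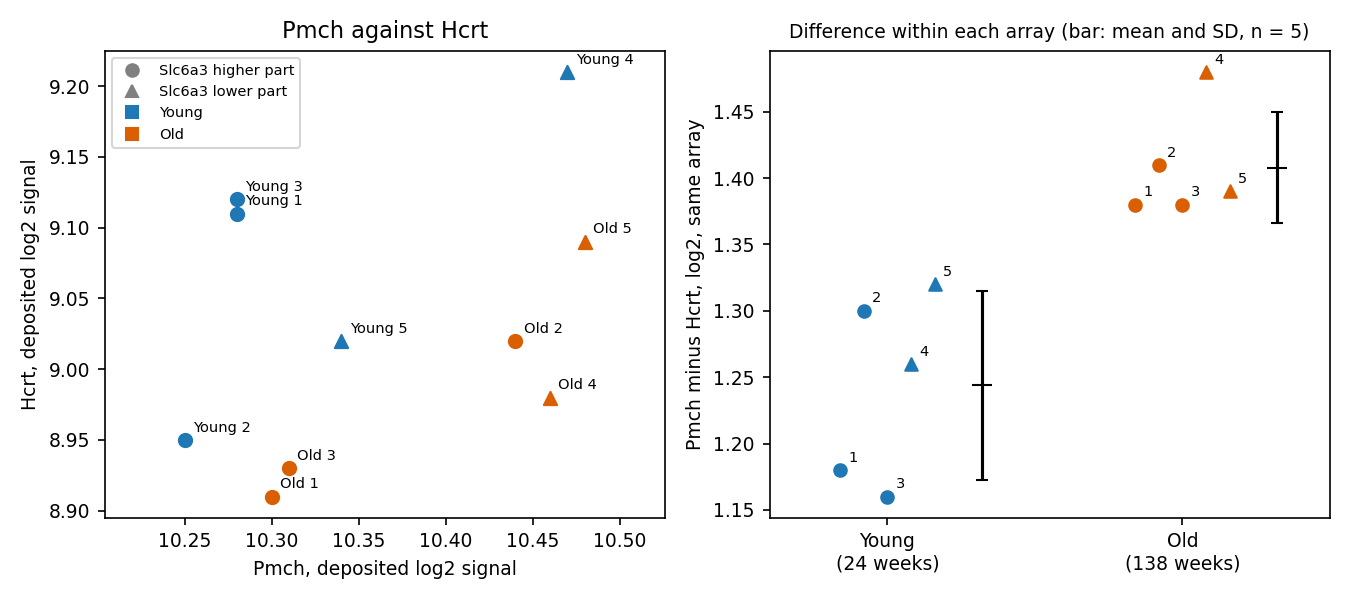
Left, Hcrt (vertical) against Pmch (horizontal), both log2 signal, for each of the 10 arrays; right, Pmch minus Hcrt in the same array, with the mean and SD of each age (n = 5). Blue is Young and orange Old, and the axes do not start at 0. Within each age arrays high in Pmch tend to be high in Hcrt, and the difference is 1.16 to 1.32 for Young arrays and 1.38 to 1.48 for Old arrays.

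The other pairs were less clear. Npy minus Hcrt was higher in Old by 0.29 log2 (SE 0.11), with 4 of 5 Old arrays above every Young array. Its exact permutation p was 0.0397, and 0.0595 after adjustment over the 3 pairs; without Young 5 the difference was 0.34 (adjusted p = 0.0476) and without Old 5 it was 0.36 (0.0238). It was 0.44 in the arrays with higher Slc6a3 and 0.08 in those with lower. Npy minus Pmch was higher by 0.13 (SE 0.10, exact permutation p = 0.254, also 0.254 adjusted), and it turned sign, to -0.07, in the arrays with lower Slc6a3.

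Covariation was measured over the 10 arrays for the 3 pairs. Over both ages together no pair passed. Pmch and Hcrt had Pearson r = 0.37 (permutation p = 0.283, adjusted p = 0.425) and Spearman rho = 0.25 (permutation p = 0.494, adjusted p = 0.494). Without Young 4 and Old 5, the arrays farthest from the median of Pmch, r was -0.07 (exact permutation p = 0.868). Npy and Hcrt had r = -0.49 (permutation p = 0.151, adjusted 0.425) and rho = -0.55 (permutation p = 0.106, adjusted 0.317); without Old 1 and Old 2 r was -0.56 (exact permutation p = 0.147). Npy and Pmch had r = 0.20 (permutation p = 0.565, also adjusted) and rho = 0.37 (permutation p = 0.296, adjusted 0.444); without Old 1 and Old 2 r was 0.31 (exact permutation p = 0.43).

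Because the age differences of Pmch and Hcrt were of opposite sign, the relation was also computed after each age's mean was removed. Pmch and Hcrt then had r = 0.76 and rho = 0.73 over the 10 arrays (exact permutation within ages, p = 0.0204 and 0.0208; adjusted over the 3 pairs 0.0612 and 0.0625), which did not pass after adjustment. Both were above their age mean in Young 4 (by 0.14 and 0.13 log2), Old 5 (0.08 and 0.10) and Old 2 (0.04 and 0.04). Both were below it in Young 2 (-0.07 and -0.13), Old 1 (-0.10 and -0.07) and Old 3 (-0.09 and -0.06). Young 1, Young 3, Young 5 and Old 4 had deviations of opposite sign. With the Slc6a3 set removed as well r was 0.78 (exact permutation within each age and set, p = 0.0139, adjusted p = 0.0417). The relation was thus as large within those sets. It leaned on the extremes: without Young 4 and Old 5 it was 0.46 (exact permutation p = 0.181), and without single arrays it ran from 0.61 to 0.83, the latter without Young 3 (adjusted p = 0.0448).

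With age removed, Npy was less closely related to the lateral peptides than these were to each other, a contrast that was not tested. Over both ages together this did not hold: r was -0.49 for Npy with Hcrt and 0.37 for Pmch with Hcrt. The age-removed r of Npy was -0.09 with Pmch (exact permutation p = 0.822, also adjusted) and -0.24 with Hcrt (exact permutation p = 0.47, adjusted 0.706). Among 245 other genes with an SD of at least 0.05 log2, Pmch ranked 2 by age-removed r with Hcrt, and Hcrt ranked 11 with Pmch. Before age was removed these ranks were 57 and 54. For Npy, Pmch ranked 120 and Hcrt 148 with age removed, and 99 and 182 before. Ranks run down from the highest signed r, so a negative relation ranks low. These ranks describe 10 arrays of 1 series and carry no test.

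The genes whose pattern over the 10 arrays was most like each member differed between them. They were chosen as the 4 highest and 2 lowest r among those 245 genes, and their r is a description. For Npy they were Abcb1a, the P-glycoprotein pump of brain endothelium (r = 0.95), Prxl2a, a peroxiredoxin-like redox protein (0.94), A2m, a protease inhibitor (0.88), and Avp, the vasopressin precursor (0.87). With age removed these were 0.93, 0.90, 0.82 and 0.80. The lowest were Elovl6, a fatty acid elongase (-0.93), and Rnf122, a ubiquitin ligase (-0.84). Like Npy, Abcb1a had its highest values in Old 1 and Old 2, at 8.43 and 8.46 log2, and the other 8 arrays reached at most 8.32. Avp was also highest there, at 9.86 and 9.96. Its age difference was 0.62 (SE 0.13), with no overlap of the ages; it passed over the varying genes (limma adjusted p = 0.00353) and not over all genes (0.182).

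For Pmch they were Ahi1, which encodes the ciliary protein jouberin (r = 0.86), Gabra5, a GABA-A receptor subunit (0.84), Sytl4, the granule-docking protein granuphilin (0.82), and Itih3, a hyaluronan-binding matrix protein (0.81). The lowest were Cplx1, the synaptic protein complexin (-0.78), and Car11, a carbonic anhydrase-related protein (-0.66). With age removed the 4 highest were at 0.83, 0.81, 0.83 and 0.77. For Hcrt they were Gnas, the stimulatory G protein subunit (r = 0.79), Gpr17, a receptor of oligodendrocyte precursors (0.74), AW551984 (0.72) and Fezf1, a forebrain zinc finger factor (0.72). With age removed they were at 0.71, 0.67, 0.63 and 0.77. The lowest for Hcrt were Efemp1, a fibulin of the extracellular matrix (-0.70), and Il33, an alarmin of glial nuclei (-0.69). Besides Avp, the genes Sytl4, Car11, Gpr17, Efemp1, Il33, Abcb1a and Rnf122 passed between the ages over the varying genes (limma adjusted p from 0.00148 to 0.0353), and none did over all genes (0.0719 to 0.587).

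Of 34 measured genes in a list of 37 other feeding peptides and receptors, 5 varied, and in all 5 the Old mean was the lower. Over all genes 0 passed. At an unadjusted p under 0.05, 1 was higher and 3 lower. All except 1 of the lower were collapsed genes, whose values cannot show a difference. Over the varying genes, of which 11.2% were called lower and 35.9% either way, 1 of the 5 was lower. That gene was Sst, the precursor of the release-inhibiting peptide somatostatin, at 10.75, 10.55, 10.69, 10.63 and 10.59 log2 in Young 1 to 5 and 10.36, 10.51, 10.52, 10.55 and 10.46 in Old 1 to 5. It fell by 0.16 (SE 0.045; limma adjusted p = 0.0272 over the varying genes, and 0.465 over all). The median difference of the 5 was -0.043, against -0.019 over all varying genes. Penk, the enkephalin precursor, was at -0.03 (SE 0.14), Trh, the precursor of thyrotropin-releasing hormone, at -0.04 (SE 0.064), and Vip, the precursor of vasoactive intestinal peptide, at -0.02 (SE 0.097). Each of these differences was smaller in size than its SE, so their shared direction carries little weight.

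**Figure D4:**
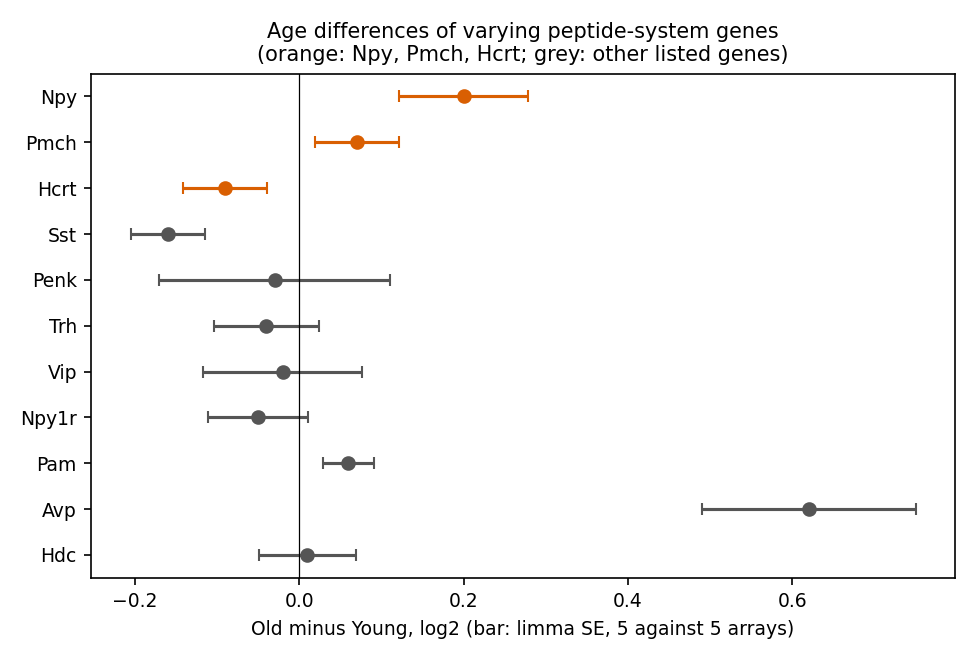
Old minus Young in log2 (points) with the limma SE (bars) for Npy, Pmch and Hcrt in orange and, in grey, the varying genes of the lists of feeding peptides and receptors, peptide processing and other hypothalamic hormones (5 against 5 arrays). Npy stands at 0.20, Pmch at 0.07 and Hcrt at -0.09; Avp is farthest from 0, at 0.62.

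Of the 8 receptors of the members' own peptides, 1 varied. Npy1r, the Y1 receptor through which neuropeptide Y acts on feeding, lay within 6.24 to 6.33 log2 in Young, while Old arrays spread over 6.04 to 6.33. Its difference was -0.05 (SE 0.061, limma adjusted p = 0.936 over all genes). Its lowest arrays were Old 1 and Old 2, at 6.04 and 6.09, the 2 arrays with the highest Npy. All Npy1r values lay below the array medians, 6.778 to 6.783, and how far they stand above background is unknown. The other receptors, Npy2r (7.78 log2), Npy4r (5.89), Npy5r (6.94), Npy6r (5.48), the melanin-concentrating hormone receptor Mchr1 (6.44) and the orexin receptors Hcrtr1 (6.77) and Hcrtr2 (7.48), were collapsed, and nothing can be read from them about age. The same holds for Pomc (6.32) and Cartpt (8.70), the precursors of peptides that reduce feeding, and for all 10 measured melanocortin and hormone receptors, among them Lepr, the leptin receptor, at 6.24. Agrp, Kiss1 and Cckar were not analysed here.

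Of 14 measured peptide-processing and granule genes 1 varied, Pam. It was 10.24 to 10.35 log2 in Young and 10.26 to 10.43 in Old, a difference of 0.06 (SE 0.031, limma adjusted p = 0.816). Of 27 genes of arcuate and lateral hypothalamic neuron identity 1 varied, the homeobox gene Meis2, at -0.09 (SE 0.17, adjusted p = 0.97). Lhx9, a factor of orexin neurons, was collapsed at 6.16, and Tbx3, a factor of arcuate neurons, at 6.98.

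Of the markers of other cell types and regions, genes listed for microglia and astrocytes passed between the ages over all genes, and 1 listed for oligodendrocytes passed over the varying genes alone. The 1 varying gene of 7 measured microglial genes was Ctss, which encodes the lysosomal protease cathepsin S. It was 8.08 to 8.22 log2 in Young and 8.97 to 9.20 in Old, and rose by 0.91 (SE 0.047; limma adjusted p = 0.000172 over all genes). Of 8 astrocyte genes 4 varied, and over all genes 1 rose and 1 fell, in both cases with no overlap of the ages. Gfap, the intermediate filament of astrocytes, was 8.83 to 9.13 log2 in Young and 9.25 to 9.52 in Old, a difference of 0.44 (SE 0.065, limma adjusted p = 0.0396). It no longer passed over all genes when any 1 of Young 1 to 4 or Old 1 to 4 was left out (adjusted p from 0.094 to 0.142). Ntsr2, a neurotensin receptor, was 9.85 to 9.99 in Young and 9.58 to 9.65 in Old, and fell by 0.30 (SE 0.027, limma adjusted p = 0.00241). Over the varying genes Gja1, the gap junction protein connexin 43, was also lower (-0.14, SE 0.043; limma adjusted p = 0.0353, and 0.525 over all genes). The mean of the 4 astrocyte genes, in which these opposite differences offset each other, was 9.90 to 9.98 log2 over the Young arrays and 9.89 to 10.01 over the Old. Of 7 measured oligodendrocyte genes 4 varied, with a mean of 10.27 to 10.47 in Young and 10.25 to 10.36 in Old. Among them Cldn11, a tight junction protein of myelin, was lower in every Old array than in any Young one (-0.24, SE 0.055), and passed over the varying genes (limma adjusted p = 0.00828) and not over all genes (0.264).

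In the other marker lists the ages overlapped or nothing varied. All 10 measured pan-neuronal genes were collapsed, so a change in neuron content cannot be read from them. The mean of the 5 varying genes of 8 midbrain dopamine genes was 7.93 to 8.61 log2 over the Young arrays and 7.85 to 8.91 over the Old. It was highest in Old 1 and Old 2, the arrays with the highest Npy. The next highest array, Young 3 at 8.61, had Npy at 7.70, below the Young mean of 7.74. The mean of the 4 varying genes of 10 striatal genes was 7.83 to 8.29 over the Young arrays and 7.76 to 8.28 over the Old. The 1 varying gene of 8 thalamic genes, Tcf7l2, was 9.09 to 9.77 and 8.99 to 9.57. The mean of the 6 varying genes of 9 measured choroid plexus genes was 6.63 to 8.50 and 6.60 to 6.77, the 8.50 being Young 5. The 1 varying gene of 7 measured pituitary genes was 6.01 to 6.48 and 5.95 to 6.12, and the mean of the 2 varying genes of 5 measured blood and liver genes 5.93 to 7.11 and 5.94 to 6.15, the 7.11 being Young 3. The part of these cell types and regions in the differences of the members was not tested.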

How the data were processed

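Hypothalamic RNA was measured on 5 Young and 5 Old Clariom S Mouse arrays (1 colour, biotin label) from 100 ng of total RNA, per the labels. The deposited table holds log2 values already summarised by probe set; no source used here states how the authors corrected background or normalized. Probe sets were named through the platform annotation (19572 with 1 symbol, 0 with several, 2634 unnamed here). The probe set of highest mean was kept per gene.

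All 19505 genes were fitted with limma 3.58.1 (R 4.3.3; lmFit, eBayes; Old minus Young; 2-sided; Benjamini-Hochberg; threshold 0.05), and again for the 276 varying genes. SE and intervals are those of the fit to all genes. Permutation tests were exact, except correlations over 10 arrays (100000 resamples). Correlations with age removed used all 14400 reorderings within ages, over the 10 arrays. With arrays left out there were fewer. With the Slc6a3 set removed as well, values were reordered only within each age and set, which allows far fewer reorderings and a coarser p. The scripts were tested on simulated data.

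Named genes were the members, the listed genes with an SD of at least 0.05 log2 on which a result turns, and the genes most like each member; listed genes that did not vary, such as the receptors, were named after their values were seen. The members and lists were chosen with earlier results of these data known. Same-numbered arrays of the 2 ages did not consistently deviate together (r from -0.219 to 0.281 over varying genes), and the main fit has no replicate block. The numbers still carry some structure, since the arrays with lower Slc6a3 have the same numbers in both ages. With a replicate block the limma SE of Pmch was smaller (0.034, against 0.051 in the main fit). Those of Npy (0.089 against 0.078) and Hcrt (0.0597 against 0.0510) were larger. The number of arrays limits the precision.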

Additional observations from a re-analysis of the deposited data

Results flagged for a closer look

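For each of 40 named varying genes and the 3 differences between members, the extreme array of each age was set against its nearest neighbour of the same age. In 7 of 86 groups that gap exceeded 0.71 of the range, where by chance about 1 in 20 groups would. The 40 are genes named elsewhere in the text, and the count depends on that choice. No value of Npy, Pmch or Hcrt, and no difference between them, was among the 7. Listed varying genes outside the 40 also stood apart among the Young arrays. In Young 5 the choroid plexus genes Kl and Folr1 were at 8.50 against 6.67 and 7.74 against 6.52. In Young 2 the pituitary gene Gh was at 6.48 against 6.08. Vip was highest in Old 4, at 6.75 log2 against a nearest Old value of 6.43, though Young 5 and Young 4 reached 6.67 and 6.65. Ttr was highest in Young 5, at 12.44 against 7.97. Among the Young arrays alone, Efemp1 (7.45 against 7.08) and Gfap (9.13 against 8.90) were also highest in Young 5. The Old arrays reached 7.79 in Efemp1 and 9.52 in Gfap. Alb was highest in Young 3, at 6.87 against 6.17, and Gja1 was lowest among the Young arrays there, at 10.10 against 10.17. Rnf122, which ran opposite to Npy, was lowest in Old 2, at 6.52 against 6.90, the array with the highest Npy.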

How the results depend on the processing

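The age differences of Pmch and Hcrt kept their direction and passed in none of 25 alternatives each, from 0.05 to 0.11 and from -0.13 to -0.06 log2. That of Npy kept its direction in 24 of 25 alternatives: it was -0.0024 within the arrays with lower Slc6a3, and it passed with median centring (0.20, adjusted p = 0.0195). Leaving out single arrays gave 0.14 to 0.24 for Npy, 0.05 to 0.11 for Pmch and -0.13 to -0.06 for Hcrt. With the replicate block the differences were 0.20, 0.07 and -0.09 (adjusted p = 0.762, 0.774 and 0.823).

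Genes called higher and lower, 37 and 6, became 546 and 7633 with quantile normalization, 92 and 19273 with median centring, 68 and 31 over genes with an SD of at least 0.01, 65 and 28 over those of at least 0.05, 10 and 1 with the replicate block, and 22 and 2 without Young 3 and Young 5. A trended robust prior called 10 lower. Without single arrays the counts were 25 to 37 and 4 to 9. Of the glial genes that passed over all genes, Ctss passed under the replicate block (adjusted p = 0.0253), and Gfap (0.467) and Ntsr2 (0.145) did not. The cause of these shifts was not tested beyond what the scalings show.

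Pmch minus Hcrt was 0.16 without Young 3 and Young 5 (adjusted p = 0.0536) and 0.18 and 0.14 within the arrays with higher and lower Slc6a3 (adjusted p = 0.1 and 1), and 0.14 to 0.18 without single arrays. Npy minus Hcrt was 0.24 to 0.36 without single arrays, and Npy minus Pmch 0.07 to 0.19, but -0.07 within the arrays with lower Slc6a3. The correlation of Npy with Pmch changed sign: 0.20 over all arrays, -0.01 to 0.39 without single arrays and -0.09 with age removed; with age removed it was -0.31 to 0.12 without single arrays and 0.20 with the Slc6a3 sets removed too. That of Pmch with Hcrt, with age removed, was 0.61 to 0.83 without single arrays and 0.78 with the Slc6a3 sets removed too. Over all arrays, leaving out single arrays gave 0.14 to 0.53 for Pmch with Hcrt and -0.66 to -0.35 for Npy with Hcrt, and with age removed -0.49 to -0.01 for the latter. The alternatives using the Slc6a3 sets, and those of the age-removed correlations, were chosen after seeing the data. No detection call was used, so the signal of these probe sets over background is unknown.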

Other observations

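By age-removed r, a measure chosen after seeing the data, the gene most like Npy over the 10 arrays was Nnat, which encodes neuronatin (r = 0.93), and the one most like Pmch was Gpr165, an orphan receptor (r = 0.90). For Hcrt, Fezf1 (0.77) and Pmch (0.76) came first. These are descriptions of 10 arrays over 245 genes and carry no test.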
